A study of Homo sapiens with 4 samples.

Results

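ETV1, ETV4, ETV5, SPRY2, SPRY4, SPRED1, SPRED2, DUSP4, DUSP5 and DUSP6 encode the PEA3 group of ETS transcription factors and feedback inhibitors of the ERK pathway. They were chosen by name, as genes with a probe set that carried their symbol alone, and all 10 were measured, each by 1 probe set, among 14232 genes. Expression was measured on 4 Affymetrix arrays of TE-1, a long-established cell line from an esophageal squamous carcinoma. TE-1-siFOXM1 cells (n = 2 arrays) received a commercial siRNA against FOXM1, a forkhead transcription factor of dividing cells, and TE-1-SCR cells (n = 2 arrays) received a scrambled siRNA. Both groups were otherwise the same line, transfected by lipofection. Whether the replicates came from separate cultures is not stated in the sources used here. The p-values then reflect only how far these arrays lay apart, which may be technical.

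In the ERK pathway, growth factor receptors activate RAS, the RAF kinases, MEK and finally ERK, which enters the nucleus and induces transcription. ETV1, ETV4 and ETV5 are induced by ERK signaling and activate genes of growth and invasion. The repressor CIC holds the ETV genes and DUSP6 down until ERK signaling inactivates it. Sprouty and SPRED proteins restrain the pathway at the level of RAS and RAF, and DUSP4, DUSP5 and DUSP6 are phosphatases that remove the activating phosphates from ERK. Transcripts of these genes are widely read as a measure of ERK output in carcinoma cells.

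FOXM1, the target of the siRNA, had log2 values of 8.28 and 8.06 in the TE-1-siFOXM1 replicates, against 10.55 and 9.75 in the TE-1-SCR replicates. The silenced arrays were the lower ones without overlap, and the difference of -1.98 (standard error 0.30) left 25.3% of the TE-1-SCR level. The adjusted p was 1 (limma, Benjamini-Hochberg adjusted over the whole table), and the two-sided exact permutation test gave p = 0.333, which is as low as it can go with 2 arrays on each side. The medians of the arrays lay between 7.54 and 7.63, and any pair of them correlated at 0.984 to 0.992 over the probe sets. Of 12 markers listed for squamous epithelium, 6 were measured. KRT14, DSG3, ITGB4 and EPCAM, 4 of the 6, reached the overall median of the arrays (7.58), and KRT15 and DSC3 did not. Over all genes, 7505 of 14232 reached it. EPCAM, a general epithelial adhesion molecule, had 11.81 and 11.59 in TE-1-siFOXM1, against 11.80 and 11.49 in TE-1-SCR. TP63 and KRT5 were not among the measured markers. Of 13 measured markers of other cell types, 2 reached that level. Of these 13, 3 were higher and 3 lower without overlap, against 13.5% and 13.8% of all genes. CD68, listed as a macrophage marker, was among the higher ones, at 11.30 and 11.23 in TE-1-siFOXM1, against 11.10 and 11.08 in TE-1-SCR. The leukocyte marker PTPRC was among the lower ones, between 3.50 and 3.74 on all arrays. EPCAM, CD68 and PTPRC were chosen from these lists with their values known.

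None of the 10 genes differed by 1.5-fold or more after FOXM1 silencing, the study's cutoff, applied here to the difference of the log2 means. Over all genes, 0.562% were higher and 0.45% lower in TE-1-siFOXM1 by that criterion. The differences of the 10 genes ranged between -0.28 for ETV5 and 0.39 for DUSP5, with a median of 0.05 against 0.003 for all genes, and 6 were positive and 4 negative. None of the 10 passed an adjusted p of 0.05 or had an unadjusted p under 0.05 in limma, where the adjusted p was 1 for each. This fit did not pair the replicate numbers. Among all probe sets, 0% passed the adjusted p in it and 3.09% had an unadjusted p under 0.05. With the replicate number added to the fit as a block, DUSP5 had an unadjusted p of 0.0271 in limma, and none of the 10 passed the adjusted p. The median of the 10 genes became -0.06 when siFOXM1 replicate 1 was left out and -0.02 when SCR replicate 2 was. In bulk RNA, fewer cells with a transcript and less transcript per cell cannot be told apart.

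**Figure D1:**
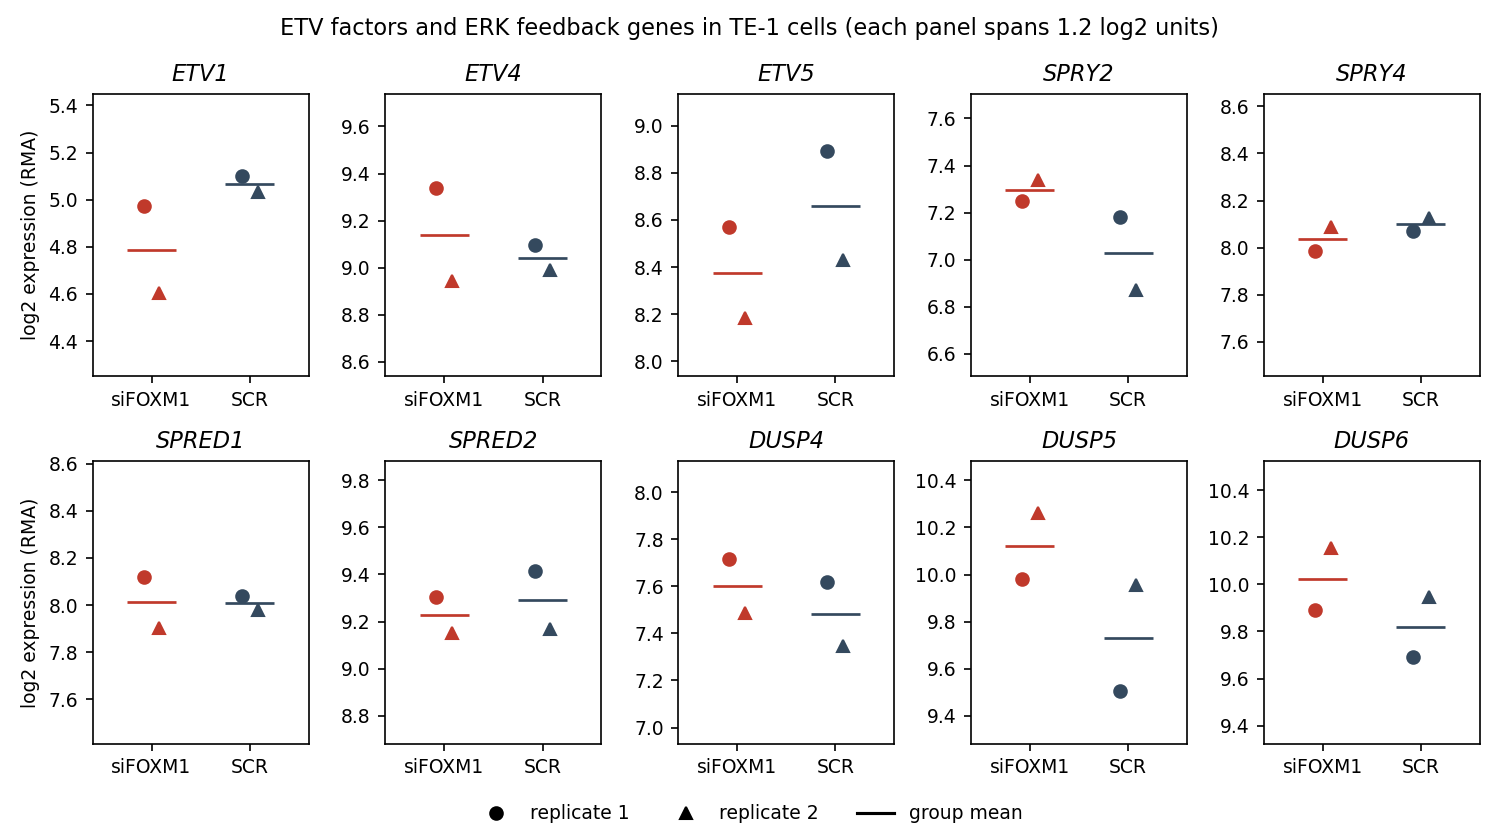
Log2 expression of the 10 genes on each array, with TE-1-siFOXM1 replicates left of TE-1-SCR replicates in each panel. Points are single arrays, marked by replicate number, and the panels have different origins but the same span. The arrays of both groups were apart for ETV1, SPRY2 and DUSP5 and overlapped for the other 7 genes.

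The groups did not overlap in 3 of the 10 genes. DUSP5 and SPRY2 were higher in both TE-1-siFOXM1 arrays than in both TE-1-SCR arrays, as were 13.5% of all genes. ETV1 was lower in both, as were 13.8% of all genes. For 5 of the 10 genes the 95% interval of the difference lay within 1.5-fold in both directions, namely ETV4, SPRY4, SPRED1, SPRED2 and DUSP4, and this held for 60.9% of all genes. For the other 5 the interval of this fit, which did not pair the replicate numbers, reached past that range. In size, the difference of DUSP5 lay above the 95th percentile of all genes (0.36), those of ETV1 and ETV5 lay above the 90th percentile (0.27), and those of SPRY4, SPRED1 and SPRED2 lay below the median (0.10).

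**Figure D2:**
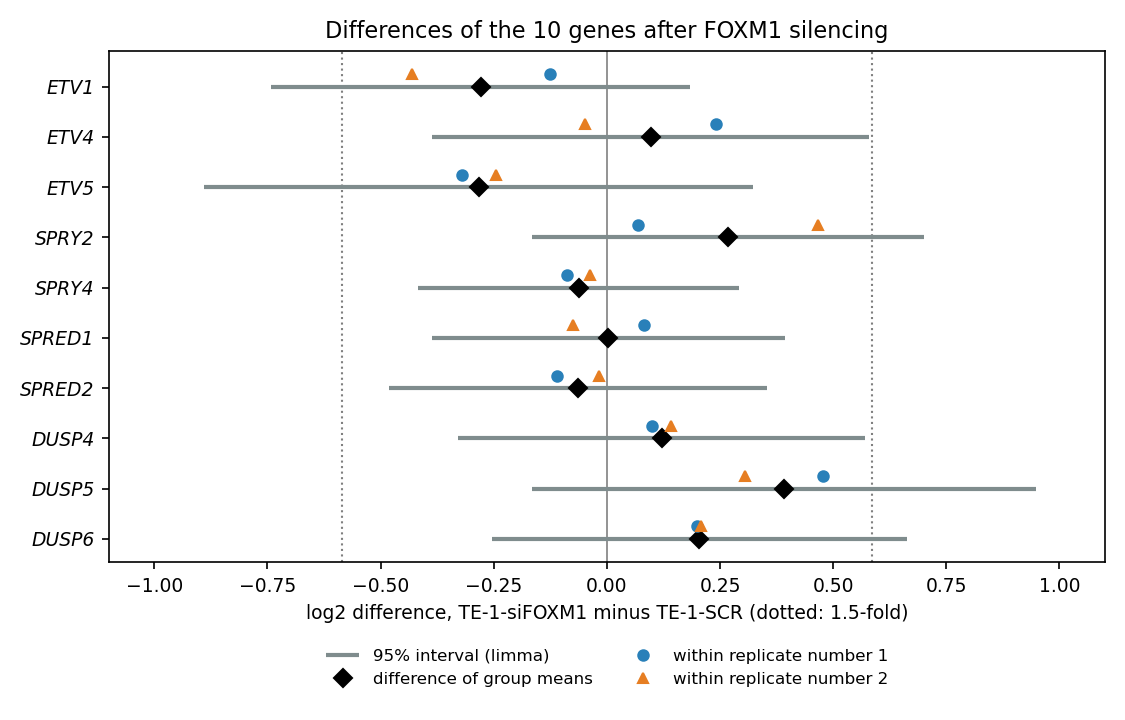
Log2 difference of each of the 10 genes, TE-1-siFOXM1 minus TE-1-SCR, with the 95% interval from limma and the differences within the replicates numbered 1 and within those numbered 2. Dotted lines mark 1.5-fold, which no point estimate reached. All 10 intervals, from the fit that did not pair the replicate numbers, included 0.

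Of the PEA3 group, ETV1 and ETV5 had negative differences and ETV4 had a small positive one. ETV1, an activator of transcription that drives growth in several cancers, had log2 values of 4.97 and 4.60 in TE-1-siFOXM1, against 5.10 and 5.03 in TE-1-SCR. The TE-1-siFOXM1 arrays were the lower ones, and the difference within the replicates numbered 1 was -0.13, against -0.43 within those numbered 2 and 0.37 between the TE-1-siFOXM1 replicates. The means were 4.79 ± 0.26 in TE-1-siFOXM1 and 5.07 ± 0.05 in TE-1-SCR (SD, n = 2 each), a difference of -0.28 (standard error 0.18, 95% interval -0.74 to 0.18, adjusted p = 1 from limma), or 1.21-fold lower. ETV1 was a dim probe set, well under the array median, and its difference was -0.09 without siFOXM1 replicate 2 and -0.46 without siFOXM1 replicate 1.

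ETV5, a PEA3 factor with a role in airway and germ cell biology, had log2 values of 8.57 and 8.18 in TE-1-siFOXM1, against 8.89 and 8.43 in TE-1-SCR. In each group replicate 1 was the higher array, by 0.39 in TE-1-siFOXM1 and 0.46 in TE-1-SCR, and the groups overlapped. The difference was -0.28 (standard error 0.23, 95% interval -0.89 to 0.32, adjusted p = 1 from limma), with -0.32 within the replicates numbered 1 and -0.25 within those numbered 2. It was -0.05 without SCR replicate 1 and -0.09 without siFOXM1 replicate 2, whereas it was -0.51 without SCR replicate 2 and -0.48 without siFOXM1 replicate 1. ETV4, the PEA3 factor itself and an activator of matrix metalloproteinase genes, had 9.34 and 8.94 in TE-1-siFOXM1, against 9.10 and 8.99 in TE-1-SCR. Its TE-1-siFOXM1 values enclosed both TE-1-SCR values. The difference was 0.10 (standard error 0.19, 95% interval -0.39 to 0.58, adjusted p = 1 from limma), and it was -0.10 without siFOXM1 replicate 1 and 0.29 without siFOXM1 replicate 2.

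The promoter table from RefSeq (GRCh38.p14) held windows of 300 bases around the start sites of 6 of the 10 genes, with 14 windows in all. ETV4, ETV5, DUSP4 and DUSP5 had no window there. Short motifs of 3 factors were searched on both strands of every window, the CIC octamers TGAATGAA, TGAATGGA, TCAATGAA and TCAATGGA, the forkhead core TAAACA and the ETS core CCGGAA. No motif contains another. The sequence of an ETV1 promoter is shown because 1 window held all 3 motifs. It is the stretch of 250 bases before the start site at chr7:13991426-13991675 on the minus strand, written 5′ to 3′ along the gene, with the motifs in capitals.
ETV1: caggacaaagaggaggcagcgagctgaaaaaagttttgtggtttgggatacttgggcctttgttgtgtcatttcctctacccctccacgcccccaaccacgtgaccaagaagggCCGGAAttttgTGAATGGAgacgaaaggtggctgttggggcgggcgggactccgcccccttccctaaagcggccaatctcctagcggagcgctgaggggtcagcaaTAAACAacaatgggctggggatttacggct
The ETS core lay 136 to 131 bases, the CIC octamer TGAATGGA 125 to 118 bases and the forkhead core 30 to 25 bases before the start site. A CIC octamer was present in 4.62% of the genes in the table, a forkhead core in 14.7% and an ETS core in 20.1%, against 2, 1 and 2 of the 6 genes. Genes with more windows have more room for a match. Counted by window, the shares were 3.77%, 12.3% and 17.2%, against 2, 2 and 4 of the 14 windows. ETV1 had 6 windows, some of which overlap, and 1 held a CIC octamer. A match is a run of letters, and binding was not measured on these arrays.

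Among Sprouty and SPRED genes, SPRY2 was the only one without overlap between the groups. SPRY2, which restrains RAS activation downstream of growth factor receptors, had log2 values of 7.25 and 7.34 in TE-1-siFOXM1, against 7.18 and 6.87 in TE-1-SCR. Both TE-1-siFOXM1 values were higher, with a difference of 0.07 within the replicates numbered 1 and of 0.47 within those numbered 2, and the TE-1-SCR replicates were 0.31 apart. The means were 7.29 ± 0.06 in TE-1-siFOXM1 and 7.03 ± 0.22 in TE-1-SCR (SD, n = 2 each), a difference of 0.27 (standard error 0.17, 95% interval -0.17 to 0.70, adjusted p = 1 from limma). Without SCR replicate 2 the difference was 0.11, and without SCR replicate 1 it was 0.42. SPRY2 also lay under the array median. Its promoter held an ETS core, 142 to 137 bases before the start site, and is shown in the same way for comparison with ETV1, as the 250 bases at chr13:80341127-80341376 on the minus strand.
SPRY2: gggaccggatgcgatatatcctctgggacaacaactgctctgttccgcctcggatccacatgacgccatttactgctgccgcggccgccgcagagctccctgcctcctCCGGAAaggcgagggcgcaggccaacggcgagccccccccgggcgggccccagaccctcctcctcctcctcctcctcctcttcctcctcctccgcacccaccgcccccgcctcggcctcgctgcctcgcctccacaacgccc

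SPRY4, another Sprouty inhibitor that ERK signaling induces, had log2 values of 7.98 and 8.09 in TE-1-siFOXM1, against 8.07 and 8.12 in TE-1-SCR, a difference of -0.06 (95% interval -0.42 to 0.29). SPRED1, which recruits the RAS inactivator neurofibromin to the membrane, had 8.12 and 7.90 in TE-1-siFOXM1, against 8.04 and 7.98 in TE-1-SCR, a difference of 0.003 (95% interval -0.39 to 0.39). SPRED2, a relative of SPRED1 with the same domains, had 9.30 and 9.15 in TE-1-siFOXM1, against 9.41 and 9.17 in TE-1-SCR, a difference of -0.06 (95% interval -0.48 to 0.35). The groups overlapped in all 3 genes, and each adjusted p was 1 in limma. Without siFOXM1 replicate 1, SPRED1 had a difference of -0.11, and without SCR replicate 2 it had -0.03. SPRED2 had 0.06 without SCR replicate 1 and 0.01 without siFOXM1 replicate 2. SPRY4 stayed negative with each array left out, at -0.11 to -0.01.

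All 3 phosphatases had positive differences. DUSP5, a nuclear phosphatase that binds ERK, had log2 values of 9.98 and 10.26 in TE-1-siFOXM1, against 9.50 and 9.95 in TE-1-SCR. Both TE-1-siFOXM1 values were above both TE-1-SCR values, with siFOXM1 replicate 1 only slightly above SCR replicate 2. The means were 10.12 ± 0.20 in TE-1-siFOXM1 and 9.73 ± 0.32 in TE-1-SCR (SD, n = 2 each), a difference of 0.39 (standard error 0.21, 95% interval -0.17 to 0.95, adjusted p = 1 and unadjusted p = 0.130 from limma), or 1.31-fold higher. It was 0.17 without SCR replicate 1, 0.25 without siFOXM1 replicate 2, 0.53 without siFOXM1 replicate 1, and 0.62 when SCR replicate 2 was left out, where it alone of the 10 genes was past 1.5-fold. With the replicate number as a block, the interval of DUSP5 was 0.08 to 0.71 (unadjusted p = 0.0271, adjusted p = 0.694 from limma).

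DUSP6, a cytoplasmic phosphatase specific for ERK, had log2 values of 9.89 and 10.16 in TE-1-siFOXM1, against 9.69 and 9.95 in TE-1-SCR. In each group replicate 2 was the higher array, by about as much as in the other, and the groups overlapped. The difference was 0.20 (standard error 0.18, 95% interval -0.25 to 0.66, adjusted p = 1 from limma), with 0.20 within the replicates numbered 1 and 0.21 within those numbered 2. Leaving out 1 array gave 0.07 to 0.34, the lowest without siFOXM1 replicate 2, while leaving out SCR replicate 1 gave 0.08. The DUSP6 promoter is shown because DUSP6 was the only other gene of the 6 with a CIC octamer, as the 250 bases at chr12:89352502-89352751 on the minus strand.
DUSP6: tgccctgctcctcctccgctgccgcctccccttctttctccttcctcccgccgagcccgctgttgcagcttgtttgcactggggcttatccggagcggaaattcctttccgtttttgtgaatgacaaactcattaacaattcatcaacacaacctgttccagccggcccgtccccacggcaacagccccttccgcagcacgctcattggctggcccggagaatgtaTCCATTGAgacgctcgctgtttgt
The capitals are the reverse complement of TCAATGGA, 24 to 17 bases before the start site, and another copy lay wholly past the end of the stretch shown. DUSP4, a nuclear phosphatase of ERK and related kinases, had 7.72 and 7.49 in TE-1-siFOXM1, against 7.62 and 7.35 in TE-1-SCR. The groups overlapped, with a difference of 0.12 (standard error 0.17, 95% interval -0.33 to 0.57, adjusted p = 1 from limma). It was -0.01 without SCR replicate 2 and 0.01 without siFOXM1 replicate 1. The mean of the 4 arrays was under the array median.

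For each of the 10 genes, the replicates of at least 1 group lay further apart than the group means. In 0 of the 10 genes was the group difference larger than both replicate differences, against 17.3% of all genes. Replicate 1 minus replicate 2 had the same sign in both groups for 9 of the 10 genes, SPRY2 being the exception, and for 69.1% of all genes. ETV5 and DUSP4 were higher in the replicates numbered 1 of both groups, whereas DUSP5 and DUSP6 were lower, by 0.28 and 0.26 in TE-1-siFOXM1 and by 0.45 and 0.26 in TE-1-SCR. The median of the 10 genes was 0.19 in TE-1-siFOXM1 and 0.09 in TE-1-SCR, against 0.08 and 0.14 for all genes. The sources used here do not say what the replicate numbers stand for, and their part in the differences was not tested.

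**Figure D3:**
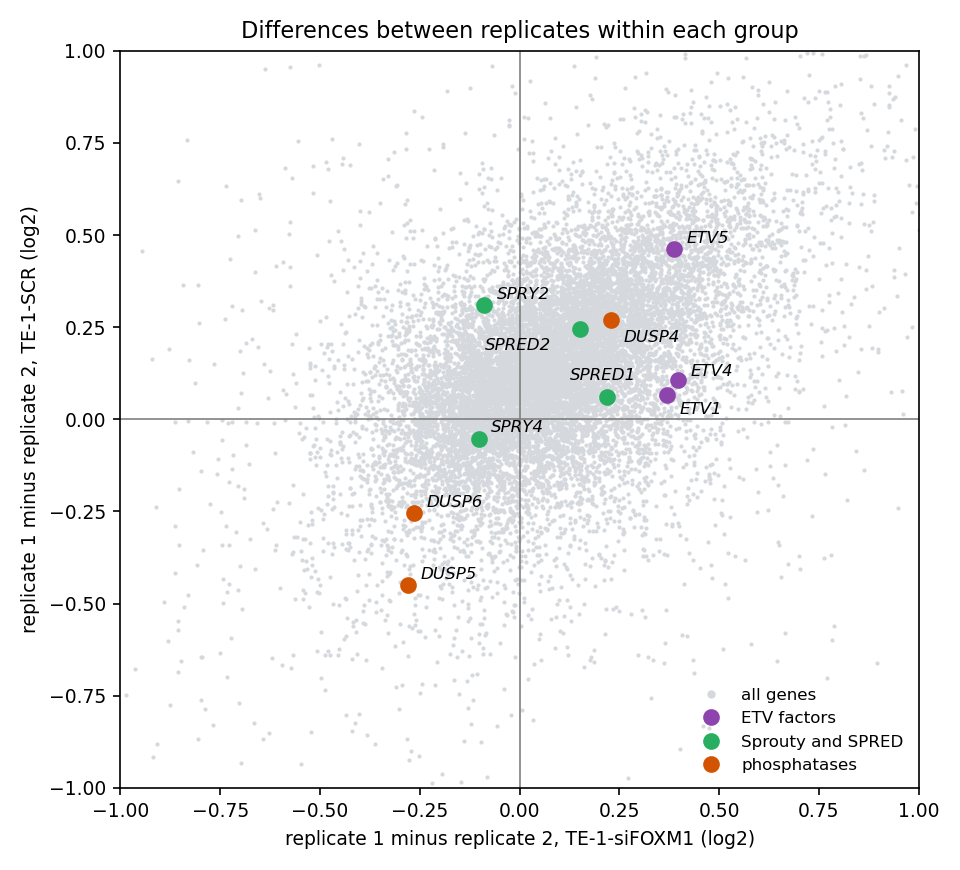
Replicate 1 minus replicate 2 in log2 units, in TE-1-siFOXM1 (horizontal axis) and in TE-1-SCR (vertical axis), for all genes as grey points and the 10 genes in color. Axes end at -1 and 1, so some genes lie outside. Of the 10 genes, 9 fall in the quadrants where both groups had the same sign.

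Within the replicates numbered 1 the median difference of the 10 genes was 0.07, and within those numbered 2 it was -0.03, each 1 array against 1. The sign was the same within both numbers for 8 of the 10 genes, against 57% of all genes, and ETV4 and SPRED1 were the 2 that differed. ETV4 had 0.24 within the replicates numbered 1 and -0.05 within those numbered 2. ETV1, ETV5, SPRY4 and SPRED2 were negative and SPRY2, DUSP4, DUSP5 and DUSP6 positive within both.

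**Figure D4:**
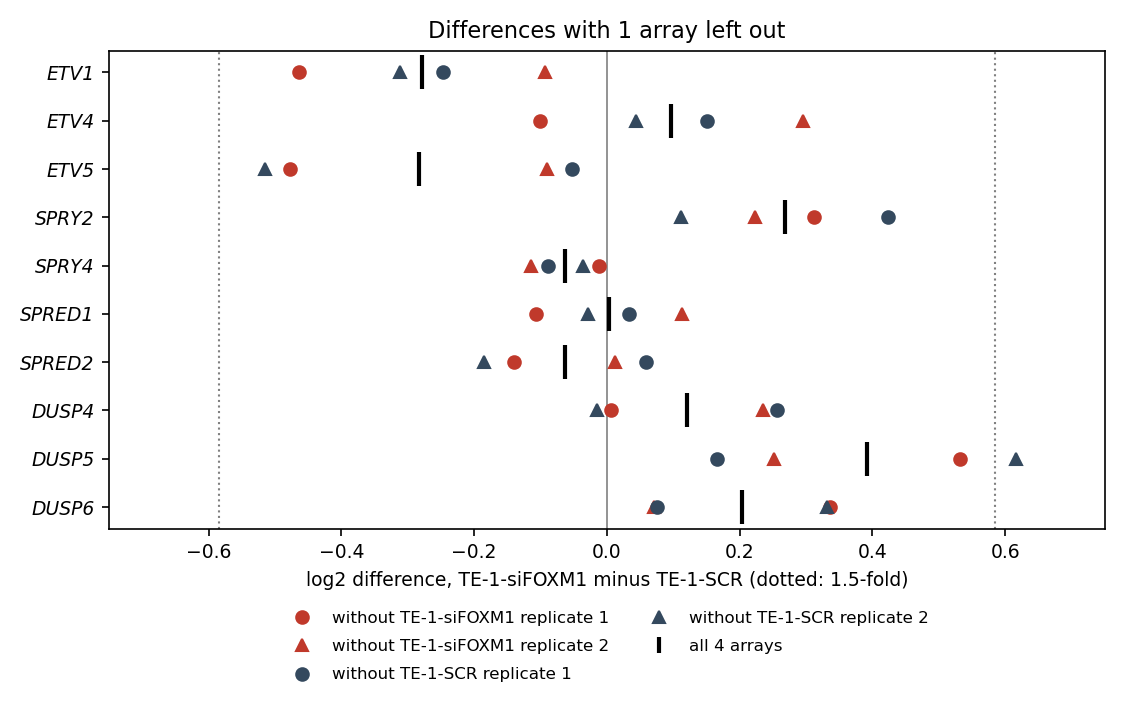
Log2 difference of each of the 10 genes, TE-1-siFOXM1 minus TE-1-SCR, with each array left out in turn (circles and triangles) and with all 4 arrays (bars). ETV4, SPRED1, SPRED2 and DUSP4 lie on both sides of 0, and DUSP5 passes the dotted 1.5-fold line only without SCR replicate 2.

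Other genes of the pathway were described on 7 lists, and none of their measured genes was 1.5-fold apart or passed limma. Of 12 other feedback inhibitors, 9 were measured, with a median difference of 0.12, and 2 were higher and 0 lower without overlap, against 13.5% and 13.8% of all genes. SPRY1, a Sprouty gene outside the 10, had the largest decrease of the list, with 6.80 and 6.16 in TE-1-siFOXM1, against 7.13 and 6.54 in TE-1-SCR. Its groups overlapped, the difference of -0.35 had a standard error of 0.31, and it was past 1.5-fold without SCR replicate 2 (-0.65) or siFOXM1 replicate 1 (-0.67). All 7 other MAP kinase phosphatases were measured, with a median of -0.02, and 1 was higher and 1 lower without overlap. DUSP1, a phosphatase of p38, JNK and ERK that many stimuli induce, was higher without overlap, with 9.69 and 9.82 in TE-1-siFOXM1, against 9.24 and 9.58 in TE-1-SCR (difference 0.35, standard error 0.18, adjusted p = 1 from limma, and 0.18 without SCR replicate 1). DUSP2 was lower without overlap, by a difference of -0.08.

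Among other ERK output genes, 18 of 20 were measured, with a median of 0.06, and 7 were higher and 1 was lower without overlap between the groups, against 13.5% and 13.8% of all genes. IER2 and KLF6, an immediate early gene and a zinc finger factor induced by growth signals, had unadjusted p-values of 0.0370 and 0.0477 in limma (adjusted p = 1 for both). Both were named as the largest increases of the list. Over all genes, 261 of 14232 had an unadjusted p under 0.05 in limma. IER2 had 8.21 and 8.31 in TE-1-siFOXM1, against 7.94 and 7.71 in TE-1-SCR, a difference of 0.44 (standard error 0.15). KLF6 had 10.40 and 10.03 in TE-1-siFOXM1, against 9.78 and 9.70 in TE-1-SCR, a difference of 0.47 (standard error 0.18), past 1.5-fold without siFOXM1 replicate 2 (0.65) and with 0.29 without siFOXM1 replicate 1. VGF, a secreted neuropeptide precursor, was lower without overlap (-0.19), and EPHA2, a receptor kinase, had -0.13 with overlap and 0.06 without SCR replicate 1. The median of the list was -0.02 without siFOXM1 replicate 2.

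**Figure D5:**
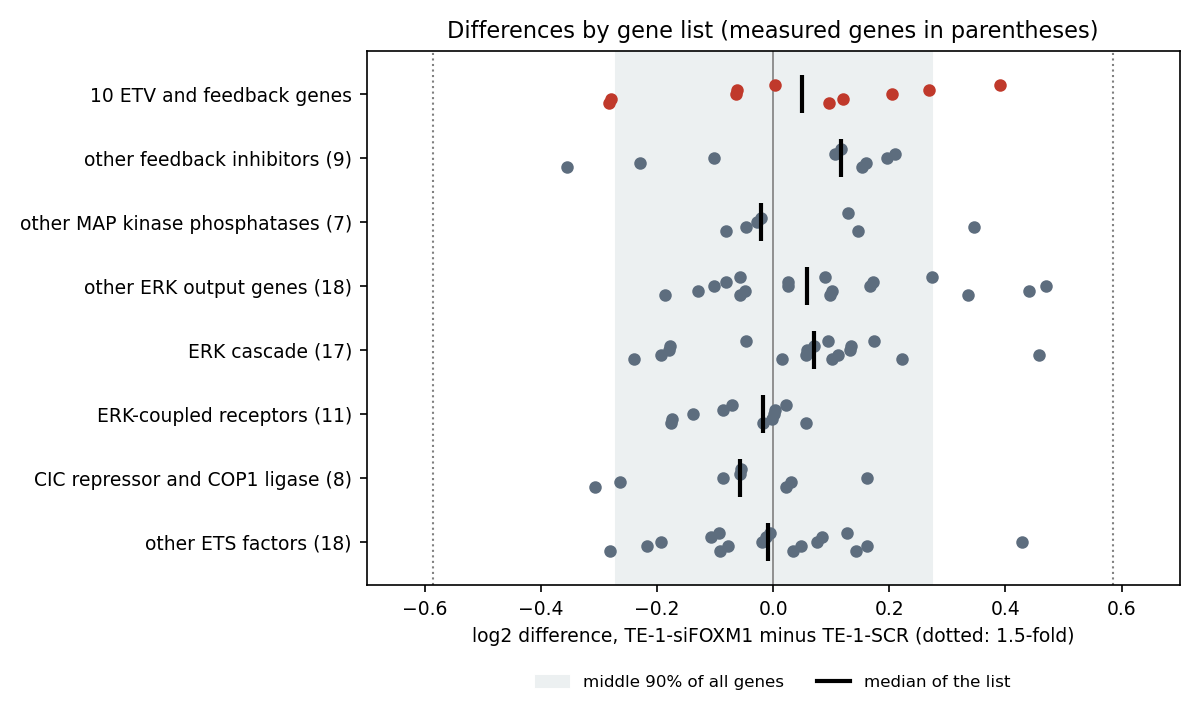
Log2 difference, TE-1-siFOXM1 minus TE-1-SCR, of each measured gene of the 10 genes and of the 7 other lists, with each list's median as a bar. The shaded band holds the middle 90% of all genes and the dotted lines mark 1.5-fold, which no listed gene reached.

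Of 28 genes of the ERK cascade itself, 17 were measured, with a median of 0.07 (-0.03 without SCR replicate 2, -0.08 without siFOXM1 replicate 1). Without overlap, 4 were higher and 3 lower, against 13.5% and 13.8% of all genes. MKNK2, a kinase that ERK activates, had the largest increase, with 9.16 and 8.59 in TE-1-siFOXM1, against 8.56 and 8.28 in TE-1-SCR (difference 0.46, standard error 0.24). It was 0.17 without siFOXM1 replicate 1 and past 1.5-fold without SCR replicate 1 (0.60) or siFOXM1 replicate 2 (0.75). The kinase RPS6KA3 was also higher without overlap (0.22), and the adaptors GAB1 and SHC1 were lower without overlap (-0.24 and -0.19). Of 12 receptors coupled to the pathway, 11 were measured, with a median of -0.02. ERBB3 and MET, which bind neuregulin and hepatocyte growth factor, had the largest decreases (-0.18 and -0.17), ERBB2 had 0.02 and IGF1R had 0.06. Only MET had no overlap, and it was lower, against 13.5% of all genes higher and 13.8% lower without overlap. Without SCR replicate 1 ERBB3 had 0.09.

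The genes that act on the ETV factors were described as a further list, of which 8 of 10 were measured, with a median of -0.06 and -0.22 without SCR replicate 2. Without overlap, 0 were higher and 1 lower, against 13.5% and 13.8% of all genes. COP1 and ATXN1L, also on this list, were not among the measured genes. ATXN1, a partner of the CIC repressor, was lower without overlap, with 7.56 and 7.67 in TE-1-siFOXM1, against 7.84 and 8.01 in TE-1-SCR (difference -0.31, standard error 0.15, adjusted p = 1 from limma). CIC itself, singled out after its values were seen, had 8.56 and 8.51 in TE-1-siFOXM1, against 8.58 and 8.45 in TE-1-SCR, a difference of 0.02 (95% interval -0.34 to 0.38) that was -0.04 without SCR replicate 2 and -0.003 without siFOXM1 replicate 1. DET1, a component of a COP1 ubiquitin ligase that degrades ETV proteins, had 0.03 (-0.22 without SCR replicate 2). The pseudokinases TRIB1 and TRIB2, which bind COP1, had 0.16 and -0.26, with overlap. Of 24 other ETS factors, 18 were measured, with a median of -0.01, and 2 were higher and 3 lower without overlap. ETS2, an ETS factor that ERK phosphorylates, had 10.32 and 10.23 in TE-1-siFOXM1, against 9.84 and 9.85 in TE-1-SCR. Its difference of 0.43 (standard error 0.14, unadjusted p = 0.0257, adjusted p = 1 from limma) lay between 0.38 and 0.48 with each array left out. The difference of ETS2 also exceeded both replicate differences, as did that of 2 of these 18 genes, ETS2 included, and 17.3% of all genes. Of the genes named from the other lists, IER2, KLF6, DUSP1, DUSP2, GAB1 and ATXN1 had this too. ETV7 was lower without overlap (-0.28), SPIB was higher without overlap (0.16), and ELF3 had -0.22 with overlap, 0.22 without SCR replicate 1 and -0.66, past 1.5-fold, without SCR replicate 2.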

How the data were processed

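Total RNA of TE-1 cells was hybridized to 4 Affymetrix arrays, and groups and replicate numbers follow the labels of the samples. The authors applied robust multi-array average (RMA) and deposited the resulting log2 value of each of 22011 probe sets on each array. Affymetrix Expression Console and the build hg18 are also named in the submitters' processing notes. The sources used here do not say which arrays entered the same normalization. Precision is limited by the number of arrays.

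Gene symbols came from the annotation of the platform. Only the 14432 with 1 symbol were used, 2408 carried several, and 14404 of the 14432 matched a current gene table of GRCh38, used for names. Where a gene had several such probe sets, the one with the highest mean was kept. Promoter sequences came from RefSeq (GRCh38.p14).

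Differences are TE-1-siFOXM1 minus TE-1-SCR group means of log2 values. The test was limma 3.58.1 (R 4.3.3) on the whole table, Benjamini-Hochberg adjusted over it, with 4.87 moderated degrees of freedom. The calculation was tested on simulated data in which the arrays varied independently of each other. The 10 genes, the other lists and the rule for naming genes (FOXM1, the 10 genes and the 2 largest increases and decreases of each list) were chosen with earlier results of these data known. The alternatives were the replicate number as a block, each array centred on its median, quantile normalization, a filter at the median level, a robust fit with an intensity trend, averaging the probe sets of a gene, a 2-fold criterion, folds of linear means, 1.5-fold with no overlap between the groups, and leaving out 1 array at a time. A lone array was then taken to vary as the arrays of the other group did.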

Additional observations from a re-analysis of the deposited data

How the results depend on the processing

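None of the 10 genes passed an adjusted p of 0.05 in limma, with all arrays or under the alternatives that were fitted. The median difference of the 10 genes was 0.05 with all arrays and -0.056 to 0.092 with each array left out (-0.056 without siFOXM1 replicate 1). The number higher by 1.5-fold was then 0 to 1, the 1 being DUSP5 without SCR replicate 2. Under quantile normalization SPRED1 had a difference of -0.0067, against 0.0031 with the deposited values. With each array left out, the differences of named genes that changed sign were those of ETV4 (-0.10 to 0.29), SPRED1 (-0.11 to 0.11), SPRED2 (-0.19 to 0.058), DUSP4 (-0.0145 to 0.26), DUSP16 (-0.26 to 0.16), DUSP8 (-0.044 to 0.34), LGALS3 (-0.16 to 0.58), EPHA2 (-0.32 to 0.056), DET1 (-0.22 to 0.28), ELF3 (-0.66 to 0.22), ERBB3 (-0.44 to 0.085), ERBB2 (-0.083 to 0.13), IGF1R (-0.16 to 0.27), CIC (-0.039 to 0.082) and EPCAM (-0.0965 to 0.21). The cause was not tested. The labels number the replicates alike in both groups, and the deviations of same-numbered arrays had a correlation of 0.336 over probe sets, but with 2 pairs nothing states that a number marks a shared batch. With the replicate block, 0 probe sets and 0 of the 10 genes passed, as without it. Since each replicate number had an array in both groups, the block could not change the differences. The median of the 10 genes was therefore 0.05 again. The lowest adjusted p of the 10 genes was then 0.694, for DUSP5, whose interval with the block was 0.08 to 0.71 (unadjusted p = 0.0271 from limma). The intervals of ETV5 (-0.57 to 0.008) and DUSP6 (-0.08 to 0.49) with the block also lay within 1.5-fold, which they did not without it. Without the block, the interval was within 1.5-fold for only 5 of the 10 genes. Of the 10, 3 (ETV1, SPRY2 and DUSP4) lay below the median signal of the arrays.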
